A study of Arabidopsis thaliana with 9 samples.

Results

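Anthocyanins and flavonols are plant pigments and screening compounds made from common dihydroflavonol precursors, and both are stored as sugar conjugates. Dihydroflavonol reductase commits the precursors to anthocyanins, and UDP-glycosyltransferases then attach sugars to the anthocyanin or flavonol ring. In Arabidopsis the genes of the late anthocyanin steps are switched on together by a complex of MYB, bHLH and WD40 proteins, whereas flavonol genes answer to another group of MYB factors, and sucrose and strong light are known to raise the anthocyanin genes.

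Described here are 4 genes of these steps, chosen by name: DFR (AT5G42800), dihydroflavonol reductase; UF3GT (AT5G54060), which adds xylose to anthocyanin 3-O-glucosides; AT4G14090, an anthocyanin 5-O-glucosyltransferase; and UGT78D1 (AT1G30530), which adds rhamnose to the 3 position of flavonols. The first 3 are late anthocyanin genes, and the fourth belongs to the flavonol branch. All 4 were chosen with earlier results of these data known. They are 4 of 13350 genes to which the annotation used here gives a probe set of their own, and each was measured by 1 of the 22746 probe sets tested. None of the 4 probe sets carried a suffix that marks possible cross-hybridisation. No probe set that names several genes contained any of the 4.

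RNA of whole Arabidopsis thaliana Col-0 seedlings, 10 days old, was hybridised to 9 Affymetrix ATH1 arrays. The first group was wild type grown with 30 µM hyperphyllin, a small molecule, in 1% DMSO. The second was the mutant amp1-13 with 1% DMSO alone, and the third was wild type with 1% DMSO alone, each with 3 biological replicates. All seedlings grew in liquid medium with 1% sucrose at 26 °C in 16 h light and 8 h dark, so every group, the wild-type DMSO seedlings included, had sugar in the medium. The mutant is a single named allele of AMP1, which encodes a putative carboxypeptidase, and since the AMP1 transcript was not analysed here, the mutant arrays were taken as labelled. The groups let the effect of the compound and that of the mutation be set against wild-type DMSO, and the compound be set directly against the mutation. Values are log2 signal intensities as deposited, a difference of 1 being a doubling.

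The array medians lay between 6.44 and 6.52. Wild-type DMSO replicate 2 stood furthest from its group, with an SD of 0.24 over probe sets around the group mean against 0.12 to 0.19 for the other arrays, and results of the named pathway genes are given without it where that changes a call. Green leaf markers were present: of 7 fixed, 5 were measured, with a summed linear signal of 25632 to 30376 with hyperphyllin, 29681 to 31472 in amp1-13 and 15527 to 18700 in wild-type DMSO. Of these 5, 4 were higher with hyperphyllin and 5 in amp1-13, beside 13.3% and 10.1% of all probe sets. Of 9 root markers 3 were measured, with a summed signal of 707 to 910, 872 to 1495 and 1282 to 1551 in the same order of groups. Of 9 seed storage markers none had a probe set that the annotation used here gives to it alone. Of these 3 root markers 1 was lower with hyperphyllin, AT3G01190 (-1.49, adjusted p = 0.000853), and 0 were higher, while EXPA7 (0.21) and EXPA18 (0.15) did not pass. Of all 22746 probe sets 3544 were lower with hyperphyllin. In amp1-13 none of the 3 passed against wild-type DMSO. The part of these marker shifts in the results was not tested. In whole-seedling RNA a change in the share of cells that express a gene and a change in RNA per cell cannot be told apart.

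The 3 late anthocyanin genes rose in amp1-13 and did not pass the test with hyperphyllin, and UGT78D1 fell in amp1-13. So all 4 genes passed the test in amp1-13, where 22.5% of all probe sets did, and 0 of 4 passed it with hyperphyllin, where 28.9% of all probe sets did. Because the 4 genes were chosen with earlier results of these data known, these counts are a description and no test of the set. Among all probe sets, 10.1% were higher and 12.5% lower in amp1-13. Passing means an adjusted p below 0.05 in limma, with Benjamini-Hochberg adjustment over all probe sets. Before adjustment limma gave 2 of the 4 genes, DFR and UGT78D1, a p under 0.05 for hyperphyllin against wild-type DMSO, beside 40% of all probe sets. Array weights count arrays far from their group less. They were 0.662, 0.227 and 2.51 for wild-type DMSO replicates 1 to 3, so replicate 3 carried most of the weighted control mean. With these weights DFR (0.90, adjusted p = 0.0206), UF3GT (-0.38, adjusted p = 0.0047) and UGT78D1 (-0.49, adjusted p = 0.0151) passed with hyperphyllin. Of all probe sets 4988 were then higher and 5497 lower, against 3023 and 3544 without weights. In the direct comparison the 3 late genes were lower with hyperphyllin than in amp1-13, so for them the compound and the mutation differed beyond the spread between replicates. In that comparison 6.33% of all probe sets passed the test, and 3.35% of all were lower with hyperphyllin.

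DFR, the enzyme gene at the branch into anthocyanins, had log2 signals of 8.17, 8.74 and 8.45 in amp1-13 replicates 1 to 3 and of 6.31, 5.27 and 5.02 in wild-type DMSO. The groups did not overlap. The difference was 2.92 ± 0.30 on the log2 scale (SE), a rise of 7.57-fold (95% CI 4.72 to 12.1, adjusted p = 0.00054). It was the sixth largest rise of the 22746 probe sets tested. With hyperphyllin the DFR signals were 6.49, 5.98 and 6.40. They overlapped the wild-type DMSO arrays only through wild-type DMSO replicate 1, which at 6.31 was the highest of its group by more than 1 log2 unit. The hyperphyllin difference was 0.76 ± 0.30 (95% CI 0.07 to 1.44, not adjusted; adjusted p = 0.0929). DFR passed without wild-type DMSO replicate 1 (1.14, adjusted p = 0.00676) and with array weights (0.90, adjusted p = 0.0206). Those weights rested the control mostly on wild-type DMSO replicate 3, the lowest control array at 5.02. Without that replicate the difference was 0.50 (adjusted p = 0.3). Between wild-type hyperphyllin and amp1-13 the difference was -2.16 ± 0.30, a level 4.48-fold lower with hyperphyllin (adjusted p = 0.00377), the sixteenth largest fall in that comparison.

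UF3GT, which lengthens the sugar chain at the anthocyanin 3 position, had log2 signals of 6.47, 6.64 and 6.51 in amp1-13, against 5.80, 5.49 and 5.88 in wild-type DMSO. All amp1-13 arrays lay above all wild-type arrays. The rise was 1.77-fold (95% CI 1.48 to 2.11, log2 difference 0.82 ± 0.11, adjusted p = 0.00178). With hyperphyllin the signals were 5.43, 5.44 and 5.55, the tightest group for this gene. They lay below wild-type DMSO replicates 1 and 3 and around replicate 2. The log2 difference was -0.25 ± 0.11 (95% CI -0.50 to 0.01, adjusted p = 0.133). Without wild-type DMSO replicate 2, the array furthest from its group, it was -0.37 with an adjusted p of 0.0113. With array weights it was -0.38 (adjusted p = 0.0047), the control then resting mostly on wild-type DMSO replicate 3, the highest at 5.88. Against amp1-13 UF3GT was 2.1-fold lower with hyperphyllin (log2 difference -1.07 ± 0.11, adjusted p = 0.00125).

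AT4G14090, which places glucose on the anthocyanin 5 position, had log2 signals of 6.07, 6.14 and 5.98 in amp1-13 and of 5.27, 5.32 and 5.36 in wild-type DMSO. The wild-type values spanned 0.09 and the 2 groups were well apart. The rise was 1.67-fold (95% CI 1.44 to 1.94, log2 difference 0.74 ± 0.10, adjusted p = 0.0013). With hyperphyllin the signals were 5.19, 5.41 and 5.46, on either side of the wild-type arrays. The difference was 0.03 ± 0.10 with a 95% CI of -0.18 to 0.25 (adjusted p = 0.835), an interval that corresponds to a ratio between 0.883 and 1.19. Of the 4 genes this one had the narrowest interval for the compound. AT4G14090 was 1.64-fold lower with hyperphyllin than in amp1-13 (log2 difference -0.71 ± 0.10, adjusted p = 0.00333).

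UGT78D1, the flavonol rhamnosyltransferase gene, had log2 signals of 7.91, 7.63 and 7.97 in amp1-13 and of 8.41, 8.80 and 8.57 in wild-type DMSO. The order was the reverse of that of the late genes, again with no overlap. The level was 1.69-fold lower in amp1-13 (log2 difference -0.76 ± 0.16, adjusted p = 0.00968). With hyperphyllin the signals were 8.09, 7.91 and 8.43, and only replicate 3 reached the lowest wild-type DMSO value. The difference was -0.45 ± 0.16 (95% CI -0.80 to -0.10, adjusted p = 0.0582). This value sat at the threshold: the adjusted p fell below 0.05 under 6 of 18 alternative settings, and their full range was 0.0151 to 0.195. Between wild-type hyperphyllin and amp1-13 the difference was 0.31 ± 0.16 (95% CI -0.05 to 0.66, adjusted p = 0.35), so for this gene the compound and the mutation were neither shown to differ nor shown to act alike. Leaving out 1 array gave values from 0.16 to 0.42 for that difference, with adjusted p from 0.248 to 0.746 in limma. It was 0.16 without hyperphyllin replicate 3 and 0.20 without amp1-13 replicate 2.

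**Figure D1:**
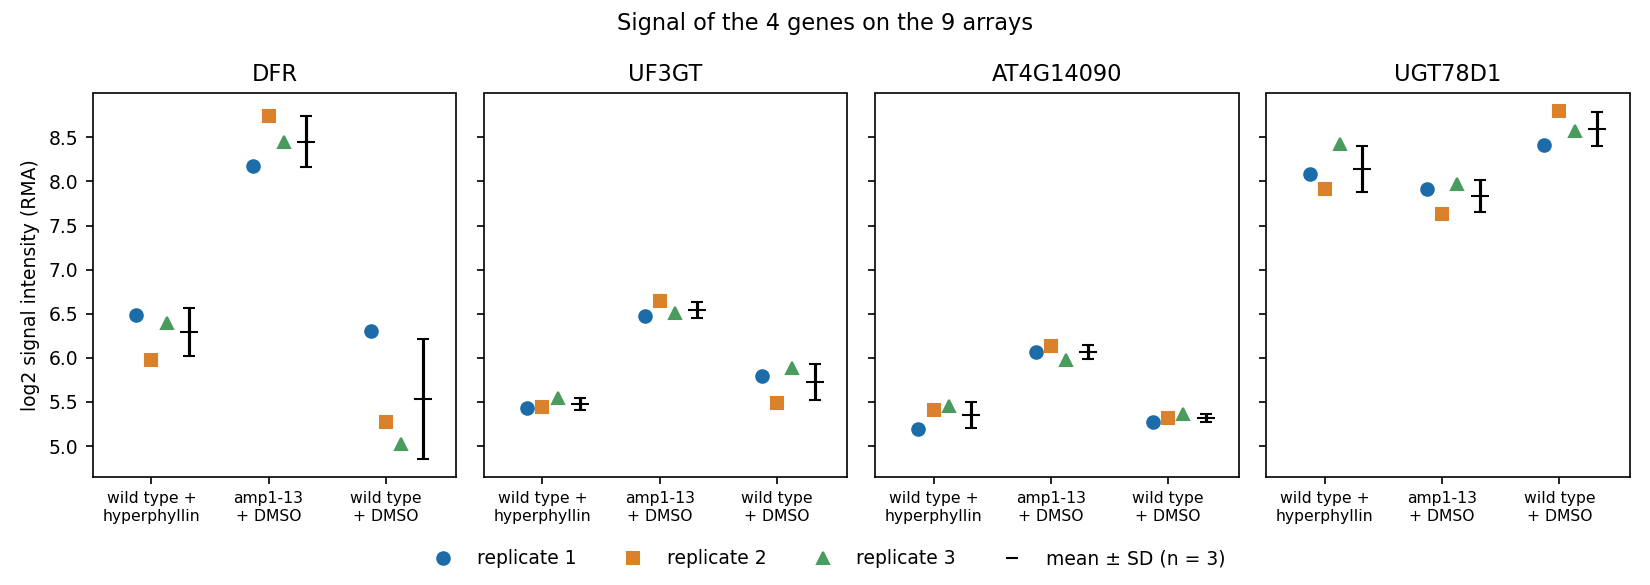
Each panel shows 1 gene: the log2 signal intensity (vertical axis) on every array of the 3 groups, with symbols for the replicate number and the mean ± SD of 3 arrays beside them. The amp1-13 arrays lie above all others for DFR, UF3GT and AT4G14090 and lowest on average for UGT78D1, and wild-type DMSO replicate 1 stands apart for DFR at 6.31.

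The order of the group means therefore differed between the genes. DFR averaged 6.29 ± 0.27 with hyperphyllin, 8.45 ± 0.29 in amp1-13 and 5.53 ± 0.68 in wild-type DMSO (SD, n = 3 each), and hyperphyllin and wild-type DMSO were not separated by the test. For UF3GT amp1-13 was highest at 6.54 ± 0.09, and hyperphyllin at 5.47 ± 0.07 came below wild-type DMSO at 5.72 ± 0.21, also not separated by the test. For AT4G14090 the means were 5.35 ± 0.14 with hyperphyllin, 6.06 ± 0.08 in amp1-13 and 5.32 ± 0.05 in wild-type DMSO. For UGT78D1 hyperphyllin, at 8.14 ± 0.26, lay between amp1-13 at 7.84 ± 0.18 and wild-type DMSO at 8.59 ± 0.20 and passed the test against neither. The spread within wild-type DMSO was widest for DFR, whose SD of 0.68 exceeded those of the other 3 genes, 0.05 to 0.21.

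**Figure D2:**
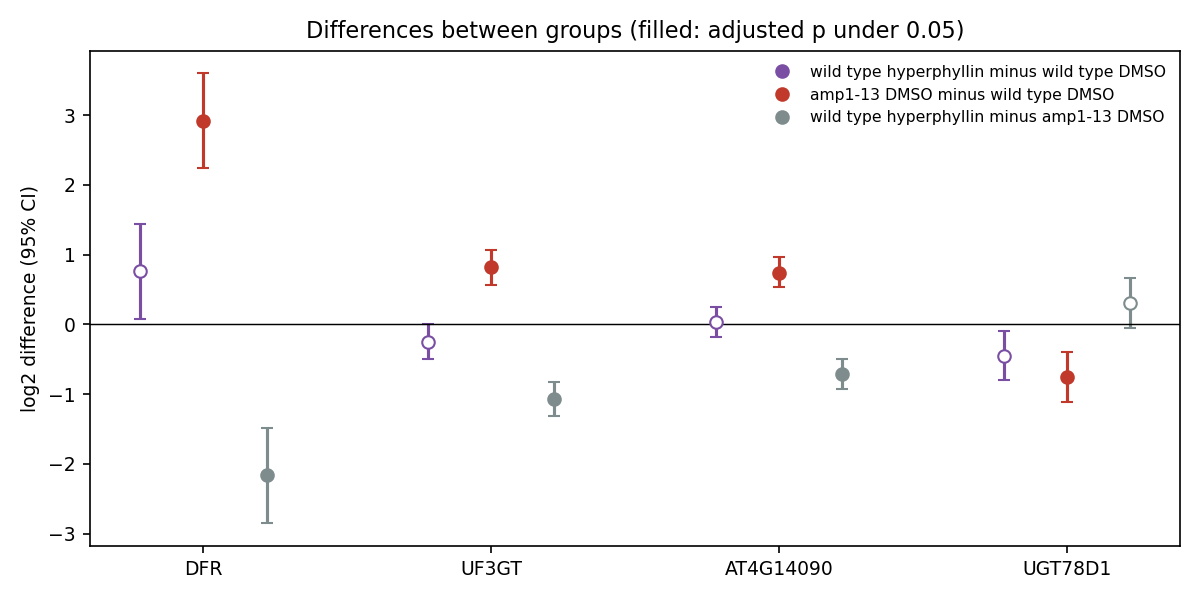
Log2 differences (vertical axis) with 95% confidence intervals for the 4 genes (horizontal axis) in the 3 comparisons, filled where the adjusted p is below 0.05. The amp1-13 differences are 2.92, 0.82 and 0.74 for the late genes and -0.76 for UGT78D1, and the hyperphyllin differences are all unfilled, between -0.45 and 0.76.

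A rise in amp1-13 together with a lower level with hyperphyllin than in amp1-13 was found for 320 probe sets, or 1.41% of those tested. For 228 of these, 1% of those tested, the hyperphyllin and wild-type DMSO arrays did not differ past the threshold, and the 3 late anthocyanin genes are among them. The 2 comparisons that make up this pattern share the amp1-13 arrays, and both comparisons with wild type share the wild-type DMSO arrays. By non-overlap of the 3 against 3 arrays, all 3 late genes were higher in amp1-13, as were 14.9% of all probe sets, and UGT78D1 was lower, as were 20.4%. With hyperphyllin all 3 late genes lay below amp1-13 without overlap, as did 12.6% of all probe sets. With 3 arrays a group, an exact permutation test could reach no p smaller than 0.1.

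Setting each late gene against UGT78D1 on the same array removes anything that shifts both probe sets alike. Only changes of this log2 difference between groups have a meaning, since probe sets differ in brightness for the same amount of RNA. DFR minus UGT78D1 was -1.60, -1.94 and -2.03 with hyperphyllin, 0.26, 1.11 and 0.48 in amp1-13, and -2.11, -3.53 and -3.54 in wild-type DMSO. No pair of groups overlapped in this difference, although wild-type DMSO replicate 1 came close to the hyperphyllin arrays. The means differed from wild-type DMSO by 1.21 with hyperphyllin and by 3.68 in amp1-13. For UF3GT minus UGT78D1 the means were -2.67 ± 0.20 with hyperphyllin, -1.30 ± 0.27 in amp1-13 and -2.87 ± 0.39 in wild-type DMSO (SD, n = 3 each), and the hyperphyllin and wild-type DMSO arrays overlapped. For AT4G14090 minus UGT78D1 they were -2.79 ± 0.25, -1.78 ± 0.26 and -3.28 ± 0.18 in the same order, with no overlap between any of the groups. The hyperphyllin shift of 0.48 lay mostly in UGT78D1. AT4G14090 itself changed by 0.03 and UGT78D1 by -0.45, and neither passed the test. How often other pairs of probe sets separate in this way was not counted. Relative to UGT78D1 the late genes thus stood higher in amp1-13 than in wild-type DMSO by 3.68 for DFR, 1.58 for UF3GT and 1.50 for AT4G14090. These values are given as a description, since the genes were paired with their results known.

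**Figure D3:**
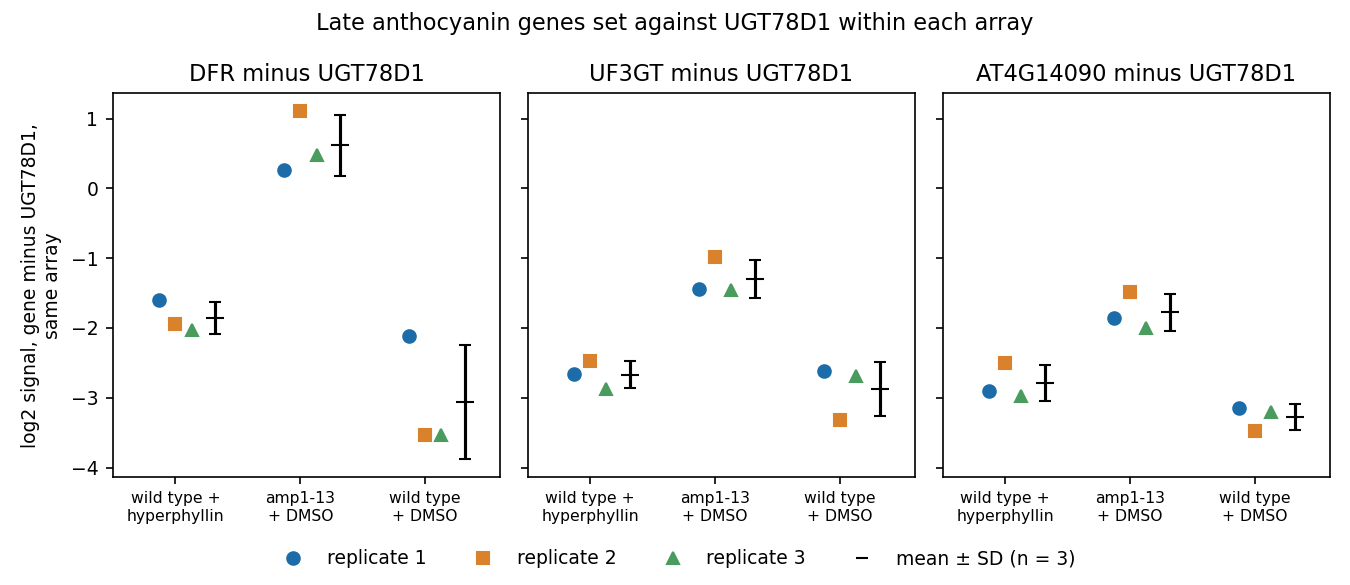
Log2 signal of each late anthocyanin gene minus that of UGT78D1 on the same array (vertical axis) for the 3 groups, with the mean ± SD of 3 arrays. The amp1-13 arrays lie highest in all 3 panels, and hyperphyllin and wild-type DMSO overlap for UF3GT.

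The other genes of the pathway were taken from lists of 77 enzymes and regulators. For 16 of these, the 4 genes above included, the annotation used here gave a probe set to that gene alone. That annotation left 8730 probe sets without a gene, so a listed gene outside the 16 was not shown to be absent from the array. None of the listed MYB, bHLH and WD40 activators and none of the general phenylpropanoid genes was among the 16. Of the 12 others, 3 were higher in amp1-13, beside 10.1% of all probe sets, and 0 were lower, beside 12.5%. In either direction 25% of the 12 passed, beside 22.5% of all probe sets. The lists were chosen with earlier results of these data known, so these shares are a description. With hyperphyllin 2 of the 12 were higher, beside 13.3% of all probe sets, and 0 were lower. The median difference of the 12 was 0.19 in amp1-13 and -0.03 with hyperphyllin, and over all probe sets it was -0.03 for each.

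Among the upstream genes CHIL, a chalcone isomerase-like protein that promotes flux into flavonoids, was measured. It had log2 signals of 8.50, 8.32 and 8.17 in amp1-13, against 7.83, 7.37 and 7.66 in wild-type DMSO, with no overlap. It rose 1.63-fold (adjusted p = 0.0147), although the adjusted p was 0.0564 without amp1-13 replicate 1. With hyperphyllin CHIL gave a difference of -0.05 ± 0.16 (adjusted p = 0.853). It was 1.69-fold lower with hyperphyllin than in amp1-13 (adjusted p = 0.0253), a call that ended without any of 5 arrays, amp1-13 replicates 1, 2 and 3 and hyperphyllin replicates 1 and 3 (highest adjusted p 0.103).

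Of the other anthocyanin decoration genes, UGT78D2 and AT5MAT did not pass the test against wild-type DMSO. UGT78D2 adds glucose to the 3 position of both flavonols and anthocyanidins and so serves both branches. Its log2 signals were 8.34, 8.28 and 8.22 in amp1-13 and 8.17, 8.06 and 8.01 in wild-type DMSO, narrowly apart. The difference was 0.20 ± 0.09 (adjusted p = 0.138), and with hyperphyllin it was -0.13 ± 0.09 (adjusted p = 0.31). Its adjusted p for hyperphyllin against amp1-13 was 0.06, and 0.0141 with array weights, 0.0443 after centring and 0.0454 without wild-type DMSO replicate 2. AT5MAT, which adds malonyl groups to the glucose placed by AT4G14090, had a difference of 0.21 ± 0.11 in amp1-13 (adjusted p = 0.216) and of -0.16 ± 0.11 with hyperphyllin (adjusted p = 0.333). With array weights AT5MAT and UGT78D2 passed in amp1-13, with an adjusted p of 0.0427 and 0.0362.

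In the flavonol branch another rhamnosyltransferase gene was measured. AT1G06000, which adds rhamnose to the 7 position of flavonols, had log2 signals of 8.35, 8.19 and 8.29 with hyperphyllin against 7.44, 7.68 and 7.46 in wild-type DMSO. It rose 1.68-fold (adjusted p = 0.0408). That call ended without any 1 of 6 arrays, wild-type DMSO replicate 1 or 3, any hyperphyllin replicate, or amp1-13 replicate 2, with a highest adjusted p of 0.121. In amp1-13 its signals were 8.79, 7.92 and 7.68, a wide spread, and the difference was 0.60 ± 0.24 (adjusted p = 0.0987). Without amp1-13 replicate 1, the highest array, it was 0.27 (adjusted p = 0.177), and it passed with array weights (0.61, adjusted p = 0.0401) and without amp1-13 replicate 3 (0.83, adjusted p = 0.039). UGT78D3, an arabinosyltransferase of flavonols, had a mean of 3.92 over the 9 arrays, below the 25th percentile of all probe sets at 4.39, and differences of -0.17 ± 0.12 with hyperphyllin and -0.11 ± 0.12 in amp1-13. Its hyperphyllin difference passed with array weights (-0.34, adjusted p = 0.0328).

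AT1G23390 encodes a Kelch F-box protein that directs chalcone synthase to degradation. Its log2 signals were 9.76, 9.18 and 9.11 with hyperphyllin and 9.35, 9.05 and 8.73 in amp1-13, against 8.70, 7.65 and 8.10 in wild-type DMSO. Both groups lay above wild-type DMSO, with a rise of 2.3-fold for hyperphyllin (adjusted p = 0.0111) and 1.86-fold for amp1-13 (adjusted p = 0.045). The amp1-13 call ended under 8 alternatives. Without wild-type DMSO replicate 2, which gave the lowest of its signals, the difference was 0.64 (adjusted p = 0.0875). It also ended without wild-type DMSO replicate 3, amp1-13 replicate 1 or 2, or hyperphyllin replicate 2 or 3 (highest adjusted p 0.147), after quantile normalization (0.0501) and with only the 2 groups compared (0.0663). The trichome repressor gene TRY and BAN, anthocyanidin reductase of the proanthocyanidin branch, had means of 3.97 and 3.77, also below the 25th percentile, and did not pass in any comparison.

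On the branch toward hydroxycinnamate esters, which draws on the same phenylpropanoid precursors, UGT84A3 rose. This gene, whose product glucosylates hydroxycinnamates, had log2 signals of 8.03, 8.40 and 8.33 in amp1-13 and of 7.41, 6.64 and 6.66 in wild-type DMSO. The rise was 2.55-fold (log2 difference 1.35 ± 0.20, adjusted p = 0.00253). As for DFR, wild-type DMSO replicate 1 was the highest control array, and the hyperphyllin arrays, at 7.13, 6.94 and 7.25, lay just below it. The hyperphyllin difference was 0.20 ± 0.20 (adjusted p = 0.512, and 0.46 with an adjusted p of 0.0489 without wild-type DMSO replicate 1). Hyperphyllin arrays were 2.21-fold lower than amp1-13 arrays (adjusted p = 0.0111), and that adjusted p was 0.0653 without amp1-13 replicate 2 and 0.0567 without hyperphyllin replicate 2. UGT84A1, HCT and ALDH2C4, of hydroxycinnamate, lignin and sinapate synthesis, had differences from -0.11 to 0.10 in both comparisons with wild type and did not pass.

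**Figure D4:**
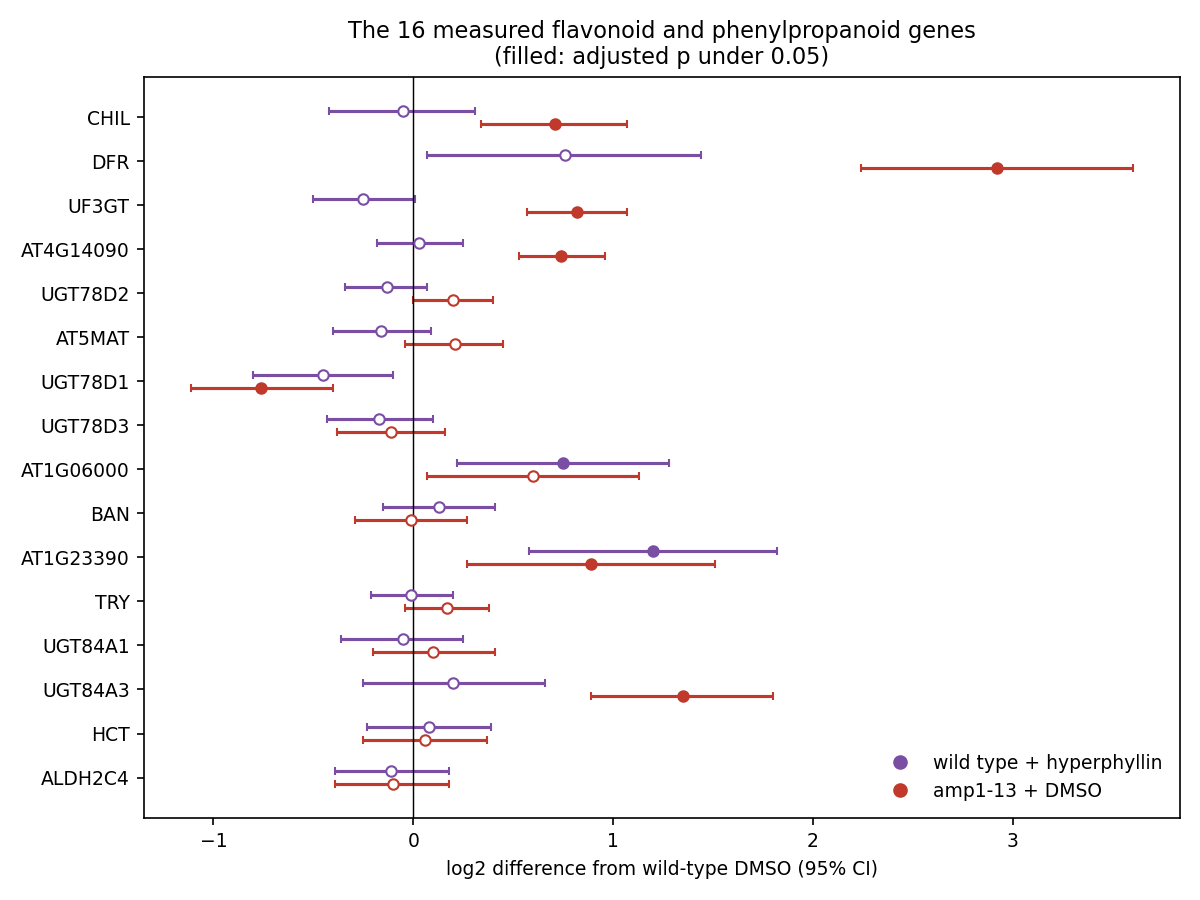
Log2 difference from wild-type DMSO with its 95% confidence interval (horizontal axis) for the 16 measured genes of the lists, in pathway order from top to bottom, filled where the adjusted p is below 0.05. In amp1-13 DFR stands furthest to the right at 2.92 and UGT78D1 is the one filled point on the left at -0.76, while with hyperphyllin AT1G06000 and AT1G23390 are filled.

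UF3GT, AT4G14090 and UGT78D1 belong to the family of UDP-glycosyltransferases, and a set of 50 measured genes was compared. It holds UF3GT and the genes with a UGT name, and was defined after the names were known. AT4G14090 and AT1G06000, named by locus, entered only through the pathway lists. Other family genes named only by locus, or with no gene in the annotation, would be missed, so ranks and shares hold within this set. In amp1-13 11 of the 50 were higher and 4 were lower, or 30%, and with hyperphyllin 13 were higher and 9 were lower, or 44%, beside the 22.5% and 28.9% of all probe sets. The amp1-13 counts include UF3GT, AT4G14090 and UGT78D1 themselves, which were chosen with earlier results known. The 30% is therefore not independent of them. The median of the set was 0.02 in amp1-13 and -0.01 with hyperphyllin. In amp1-13 UF3GT and AT4G14090 ranked 5 and 6 from the largest rise of the set, and UGT78D1 ranked 2 from the largest fall. With hyperphyllin the same genes ranked 36, 24 and 42 from the largest rise. The largest rise in the set was that of UGT73B1 in both comparisons, with log2 differences of 1.57 with hyperphyllin (adjusted p = 0.000344) and 1.74 in amp1-13 (adjusted p = 0.000384). The largest falls were UGT85A5 with hyperphyllin (-1.35) and UGT72B3 in amp1-13 (-1.20).

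**Figure D5:**
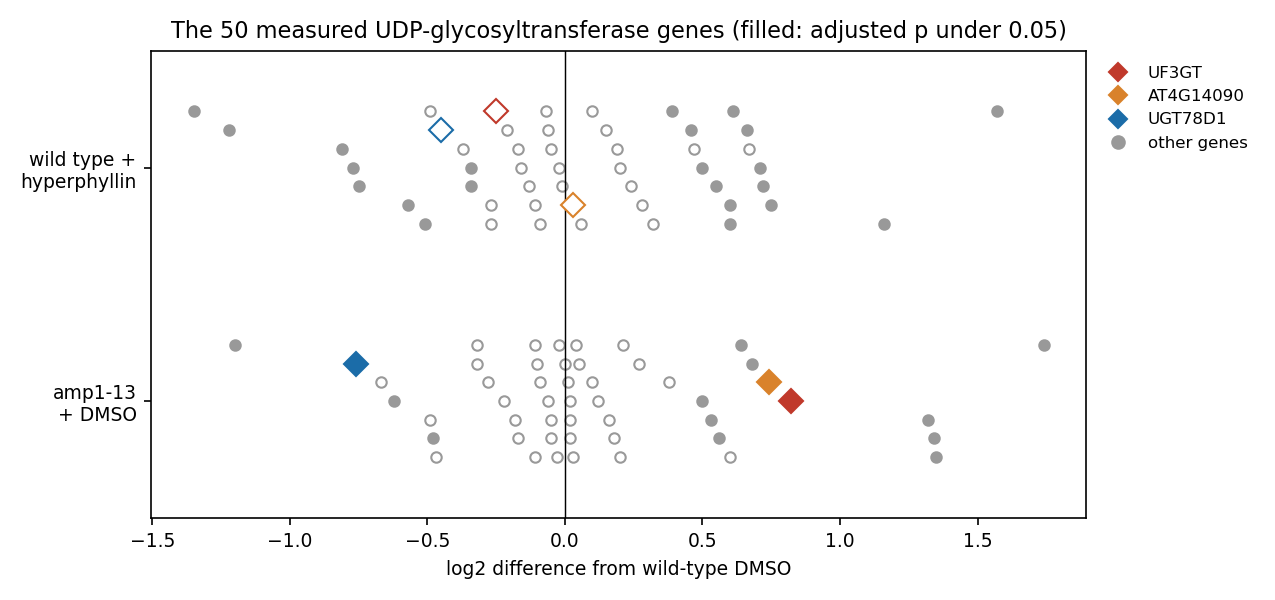
Log2 difference from wild-type DMSO (horizontal axis) of the 50 measured UDP-glycosyltransferase genes with hyperphyllin (upper band) and in amp1-13 (lower band), filled where the adjusted p is below 0.05, the height within a band having no meaning. UF3GT at 0.82 and AT4G14090 at 0.74 lie right of most of the set in amp1-13 and UGT78D1 at -0.76 lies left. With hyperphyllin these 3 genes are unfilled.

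Likeness of pattern was measured as Pearson's r of the log2 signal over the 9 arrays, among 9448 other probe sets that name 1 gene and have a mean signal of at least the 25th percentile. The 9 arrays fall into 3 groups, so r mostly follows the group means, and it is given as a description. The pattern most like that of DFR was that of UGT84A3, with r = 0.986, ahead of AT4G36530 at 0.974 and the plastid gene rbcL, the Rubisco large subunit, at 0.973. For UF3GT the nearest were AT5G38510 at 0.98, AT5G22460 at 0.967 and NQR, a quinone reductase gene, also at 0.967. For AT4G14090 they were AT1G28190 at 0.978 and AT5G38780 at 0.963. For UGT78D1 they were AT5G41190 at 0.989 and RAB6A, a small GTPase gene, at 0.963, with small differences of -0.38 and -0.39 in amp1-13. None of the 4 genes was among the 5 nearest patterns of another.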

How the data were processed

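The authors deposited a table of log2 intensities for all 9 arrays, and the submitters' processing notes name RMA. Which software or probe set definition was used is not given in the sources used here. That the deposited values are log2 follows from their range, 2.77 to 14.3. Arrays carry no count depth, so 3 arrays per group limit the precision, and p-values set each difference against the spread between samples labelled as biological replicates.

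Of 22810 probe sets, 64 controls were left out and 22746 were fitted as deposited, without a filter, in limma 3.58.1 (R 4.3.3), with 1 mean per group over 9 arrays and default eBayes settings. Two-sided p-values were adjusted over all probe sets by Benjamini-Hochberg, with a threshold of 0.05. The code was tested on simulated data. Confidence intervals are 95%, from the moderated fit, and not adjusted for multiple tests. Platform annotation gave 13513 probe sets 1 gene each, 503 several and 8730 none that is used here, and 13436 matched a RefSeq gene. A gene was represented by its brightest probe set.

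The members and lists were chosen with earlier results of these data known. The rule named the 4 genes, the measured pathway genes and, per gene, the 5 most alike in pattern. The UDP-glycosyltransferase set was added later. Alternatives were centring, quantile normalization, a filter on dim probe sets at the 25th or the 50th percentile, a trended robust prior, array weights, a replicate block, only the 2 groups compared, only probe sets naming 1 gene, and leaving out each array.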

Additional observations from a re-analysis of the deposited data

How the results depend on the processing

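In amp1-13 against wild-type DMSO all 4 genes passed the threshold under every alternative run, 18 for DFR and UGT78D1 and 17 for UF3GT and AT4G14090, which the 50th percentile filter leaves out. Their log2 differences ranged from 2.66 to 3.31 for DFR, 0.70 to 0.90 for UF3GT, 0.70 to 0.79 for AT4G14090 and -0.85 to -0.65 for UGT78D1. The 3 late genes also stayed lower with hyperphyllin than in amp1-13 under every alternative run. With hyperphyllin against wild-type DMSO, array weights brought DFR (0.90), UF3GT (-0.38) and UGT78D1 (-0.49) past the threshold. UGT78D1 also passed with the 25th and 50th percentile filters (-0.45 each), after centring (-0.50) and after quantile normalization (-0.49). Leaving out 1 array gave 0.50 to 1.14 for DFR, -0.37 to -0.17 for UF3GT and -0.59 to -0.34 for UGT78D1, and each passed in only 1 of these, DFR without replicate 1 of wild-type DMSO, UF3GT without its replicate 2 and UGT78D1 without replicate 3 of hyperphyllin. Array weights gave wild-type DMSO replicate 2 the lowest weight, 0.227, and wild-type DMSO replicate 3 the highest, 2.51. The cause of these differences was not tested.

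The replicate numbers gave no clear pairing of the arrays. Deviations from the group means correlated between -0.197 and 0.226 for same-numbered arrays and between -0.251 and 0.357 for the others. Deviations within a group of 3 arrays constrain each other, so these values cannot exclude a pairing. With the replicate block the DFR difference in amp1-13 was 2.92 and no call of the 4 genes changed.

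Counts of probe sets moved more. Higher and lower counts were 3023 and 3544 for hyperphyllin against wild-type DMSO, 2289 and 2835 for amp1-13, and 677 and 762 for hyperphyllin against amp1-13. With array weights they were 4988 and 5497, 4412 and 4951, and 1735 and 1688. Testing only probe sets naming 1 gene gave 1452 and 2092, 1026 and 1748, and 308 and 367. Leaving out 1 array gave 1921 to 4422 and 1960 to 4447, 1295 to 3864 and 1250 to 4078, and 197 to 1094 and 309 to 1133. Over the 12 other pathway genes, 592 of 624 values under these alternatives, run for them after the data were seen, kept their call, 22 lost it, 10 gained it and 0 reversed.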

Other observations

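UGT84A1, UGT84A3 and UGT84A4 lie next to each other in the RefSeq gene order and encode related glucosyltransferases. In amp1-13 UGT84A3 rose 2.55-fold (adjusted p = 0.00253), UGT84A4 was 1.54-fold lower (adjusted p = 0.00305) and UGT84A1 had a difference of 0.10 ± 0.14 (adjusted p = 0.63). With hyperphyllin UGT84A4 was 1.26-fold lower (adjusted p = 0.0299). UGT84A4 was singled out after its values were seen, and none of the 50 glycosyltransferase probe sets carried a suffix for possible cross-hybridisation.

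Wild-type DMSO replicate 1 was the highest control array for several of the genes that rose in amp1-13. It exceeded the next control array by more than 0.5 on the log2 scale for DFR (6.31 against 5.27), UGT84A3 (7.41 against 6.66) and AT1G23390 (8.70 against 8.10). For AT4G14090 the same array was the lowest of the 3 at 5.27.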
